A study of Homo sapiens with 12 samples.

Results

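The growth factors that bind the ERBB receptors were followed as 8 genes, chosen by name from the 38516 genes of the deposited expression table: EGF, TGFA, AREG, EREG, HBEGF, BTC, EPGN and NRG1. All 8 were in the table. RNA sequencing had been carried out on KYSE150 and KYSE510, established cell lines of human esophageal squamous cell carcinoma (ESCC) grown in RPMI-1640 with 10% FBS. Control cells of each line were set against cells with the long non-coding RNA gene HCP5 silenced, with 3 libraries in each of the 4 groups, 12 in all. The labels name neither the silencing reagent nor the control reagent. Titles begin with shc for all controls and sh4 for all silenced libraries, in both lines, without explaining these codes. An effect of a shared reagent could not be told apart from one of HCP5 loss. Nor do the labels say whether libraries of a group came from separate cultures, so the p-values below measure only the spread between these libraries. Values are RPKM, so each gene's reads are divided by its exon length and by the total assigned to genes. Mean ± SD is over 3 libraries throughout.

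ERBB ligands are made as membrane-anchored precursors, and proteases, chiefly of the ADAM family, cut them free so that they can act on the same or neighbouring cells. EGF, TGFA, AREG and EPGN bind EGFR, HBEGF, BTC and EREG bind both EGFR and ERBB4, and NRG1 binds ERBB3 and ERBB4. Bound receptors pair, signal through adaptors to the RAS and ERK pathway, and induce their own ligands and inhibitors. In squamous epithelium this system is known for driving keratinocyte growth and migration, and in ESCC EGFR is often present in extra copies.

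Of the 8 ligands, 3 were far more abundant in KYSE150 (AREG, NRG1 and TGFA), 4 were close to 0 in KYSE150 and present in KYSE510 (EREG, BTC, EPGN and EGF), and HBEGF overlapped between the control lines. AREG, EREG and EPGN lie side by side on chromosome 4 of GRCh38, yet they followed opposite patterns across the lines. The DNA just before their starts is shown for that reason. Each line below is the 240 bases from 250 to 11 bases before the start given by RefSeq (GRCh38.p14, plus strand): chr4:74444886-74445125 for AREG, chr4:74364895-74365134 for EREG and chr4:74308220-74308459 for EPGN. Capitals mark matches to 2 motifs, TGACGTCA (the cAMP response element) and TATAAA, a core promoter element.
AREG: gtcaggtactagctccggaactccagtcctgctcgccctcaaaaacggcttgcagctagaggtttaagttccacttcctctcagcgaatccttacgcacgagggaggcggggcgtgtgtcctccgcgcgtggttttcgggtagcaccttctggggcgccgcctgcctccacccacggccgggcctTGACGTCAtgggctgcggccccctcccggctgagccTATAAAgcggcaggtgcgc
EREG: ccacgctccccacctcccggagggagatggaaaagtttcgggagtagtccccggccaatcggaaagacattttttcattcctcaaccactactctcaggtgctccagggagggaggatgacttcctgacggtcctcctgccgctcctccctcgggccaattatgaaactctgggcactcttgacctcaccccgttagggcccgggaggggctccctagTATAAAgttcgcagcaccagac
EPGN: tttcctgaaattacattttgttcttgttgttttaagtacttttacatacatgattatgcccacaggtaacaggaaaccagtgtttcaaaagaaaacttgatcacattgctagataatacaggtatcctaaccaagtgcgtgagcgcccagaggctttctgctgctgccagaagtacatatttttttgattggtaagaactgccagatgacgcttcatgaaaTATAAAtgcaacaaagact

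Both strands were searched for TGACGTCA, TATAAA and TGANTCA, a form of the AP-1 site, in the same window of 35116 RefSeq promoters of 27305 genes. TATAAA was found in all 3 sequences, at 29 to 24 bases before the start in AREG and EPGN and 32 to 27 bases before it in EREG. It was in 10.6% of all windows. TGACGTCA was in the AREG window alone among these 3, 65 to 58 bases before the start, and in 1.57% of all windows. TGANTCA, found in 6.43% of all windows, was in none of the 3. The sequences also differed in composition. AREG had 21 CG dinucleotides and a GC content of 64.6%, EREG had 11 and 58.3%, and EPGN had 3 and 37.1%, against a median of 10 and 57.9% over all windows. A match says only that these letters are present, and neither binding nor methylation was measured.

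The libraries held 20035025 to 28202422 reads assigned to genes, and every silenced KYSE150 library was deeper than every KYSE150 control. At these depths 3 reads on a gene of 1 kb correspond to an RPKM of 0.106 to 0.150. The mitochondrial share of reads was 7.49% to 8.91% for KYSE150 and 10.2% to 11.5% for KYSE510. HCP5 itself ran from 0.745 to 0.786 RPKM in KYSE150 controls and 0.315 to 0.579 in silenced libraries. KYSE510 controls held 0.914 to 1.85 and silenced KYSE510 0.505 to 0.951, where the ranges overlapped. Mean HCP5 was 0.770 RPKM in control and 0.437 in silenced KYSE150, and 1.39 and 0.801 in KYSE510. On log2(RPKM + 0.5), a scale that understates changes of low genes, its mean change over both lines was -0.49. The adjusted p in limma was 0.185, and 0.0295 with a replicate block. All 9 squamous markers fixed for the check (such as KRT5, KRT14 and TP63) were expressed. Fibroblast markers summed to at most 0.901 RPKM and endothelial markers to at most 2.09. Leukocyte markers summed to 29.7 to 47.1 RPKM, nearly all of it CD68, a lysosomal protein that epithelial cells also make.

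AREG (amphiregulin, chr4:74445134-74455009, plus strand) was the most abundant ligand in KYSE150. Control libraries of KYSE150 had an RPKM of 28.0, 14.1 and 25.3, and those with HCP5 silenced 39.6, 19.1 and 37.7. The KYSE510 controls stood at 3.48, 1.97 and 2.98, and silenced KYSE510 at 3.82, 2.64 and 5.66. Every KYSE150 library was above every KYSE510 library, while control and silenced ranges overlapped within each line. Among controls the mean was 22.5 ± 7.39 in KYSE150 and 2.81 ± 0.770 in KYSE510, a log2 difference (KYSE510 minus KYSE150, on log2(RPKM + 0.5)) of -2.76 (SE 0.35, limma adjusted p = 3.19e-05).

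TGFA (transforming growth factor alpha, chr2:70447280-70554193, minus strand), the ligand closest to EGF in its binding, had an RPKM of 5.06, 3.66 and 5.29 in KYSE150 controls, against 6.62, 7.18 and 7.78 with HCP5 silenced. KYSE510 controls held 1.21, 1.08 and 1.48, and silenced KYSE510 1.31, 1.01 and 2.15. In KYSE150 the silenced and control libraries did not overlap, and in KYSE510 they did. Between controls TGFA was lower in KYSE510 by a log2 difference of -1.55 (SE 0.19, limma adjusted p = 3.21e-05).

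HBEGF (heparin-binding EGF-like growth factor, chr5:140332843-140346631, minus strand) varied least between the lines. Its RPKM was 1.65, 1.15 and 1.69 in KYSE150 controls, 1.80, 1.69 and 1.72 in silenced KYSE150, 0.937, 0.669 and 1.29 in KYSE510 controls, and 1.06, 0.832 and 1.80 in silenced KYSE510. Each group overlapped its neighbour in the order of means. The log2 difference between control lines was -0.46 (SE 0.21, limma adjusted p = 0.0753). That p fell to 0.0423 without replicate 2 of the KYSE150 controls, to 0.0338 without replicate 3 of the KYSE510 controls and to 0.0347 without replicate 3 of silenced KYSE510, so the call depended on single libraries.

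NRG1 (neuregulin 1, chr8:31639386-32767959, plus strand), a ligand of ERBB3 and ERBB4 rather than EGFR, had an RPKM of 14.2, 10.5 and 13.8 in KYSE150 controls, against 15.7, 10.5 and 13.5 with HCP5 silenced. KYSE510 controls read 3.05, 2.88 and 2.33, and silenced KYSE510 3.18, 2.86 and 3.70. The lines did not overlap, and within each line the groups did. Between controls the log2 difference was -2.03 (SE 0.16, limma adjusted p = 8.18e-07).

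**Figure D1:**
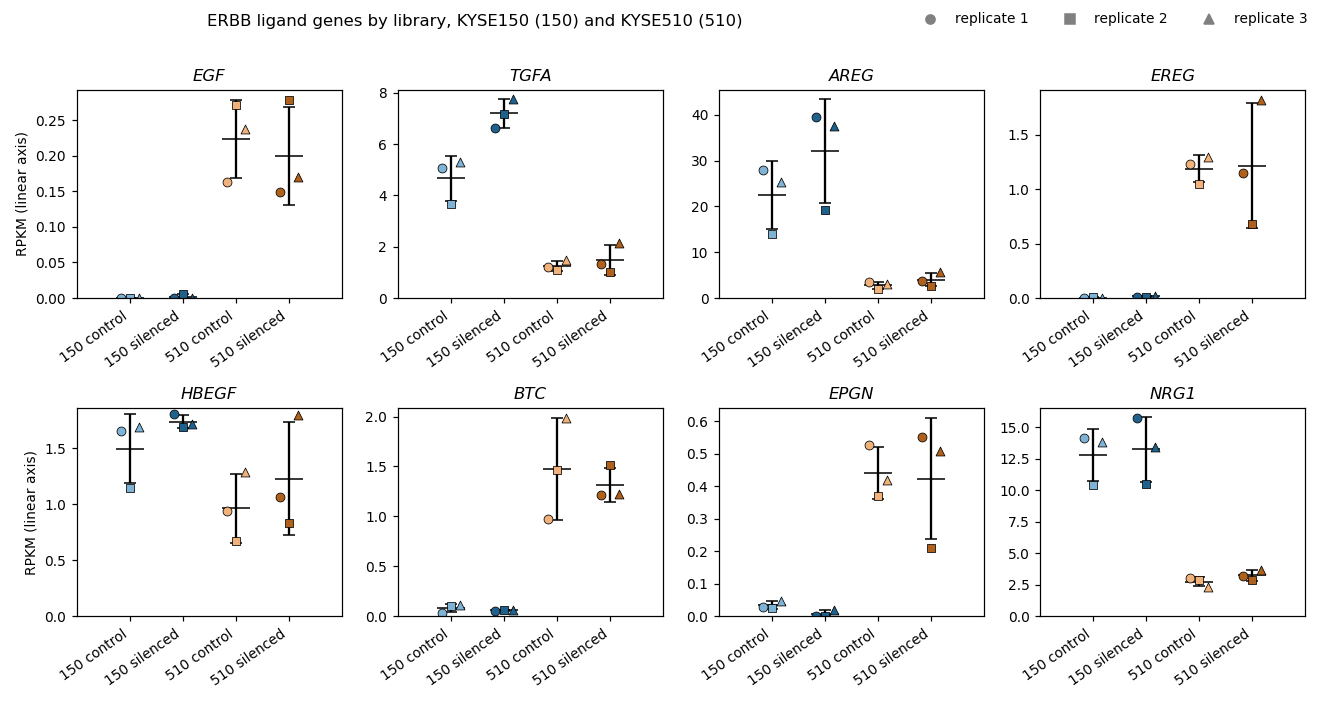
RPKM (linear axes, a scale for each gene) of the 8 ligands in each of the 12 libraries (points, shaped by replicate number), by group, with bars for the mean ± SD of 3 libraries drawn no lower than 0. AREG, TGFA and NRG1 are higher in KYSE150, EREG, BTC, EPGN and EGF in KYSE510, and HBEGF overlaps between groups next to each other in the order of means.

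EREG (epiregulin, chr4:74365143-74388751, plus strand) was all but missing from KYSE150. Its 3 KYSE150 controls held 1 read in all, and the silenced libraries held 7. KYSE510 controls reached an RPKM of 1.23, 1.05 and 1.29, and silenced KYSE510 1.14, 0.679 and 1.82. Scaled to depth, KYSE510 controls held 431 times the EREG reads of KYSE150 controls, with an exact 95% interval of 76.9 to 17040.4 that covers counting error only.

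BTC (betacellulin, chr4:74744759-74794686, minus strand) had an RPKM of 0.974, 1.46 and 1.99 in KYSE510 controls, against 1.21, 1.51 and 1.23 after silencing. No KYSE150 library passed 0.110 RPKM. The ratio of reads between control lines was 17.8 (exact 95% interval 10.6 to 32.1). EPGN (epigen, chr4:74308473-74315307, plus strand) stood at 0.527, 0.371 and 0.421 RPKM in KYSE510 controls and at 0.551, 0.209 and 0.510 after silencing, and reached at most 0.0486 in KYSE150. Its ratio was 12.6 (4.66 to 47.6).

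EGF itself (chr4:109912884-110012266, plus strand) had the lowest mean of the 8 ligands in both KYSE510 groups, with an RPKM of 0.163, 0.271 and 0.237 for controls, against 0.150, 0.278 and 0.171 after silencing. In silenced KYSE510 replicate 2, EPGN was lower, at 0.209. Only 1 EGF read was found in the 6 KYSE150 libraries, in a silenced library. EGF was at least 29.1-fold higher in KYSE510 controls than in KYSE150 controls, taking a floor of 3 reads over the KYSE150 group. It stayed under the filter (0.5 RPKM in at least 3 libraries) and was not tested by limma. Control libraries of KYSE510 thus held reads of all 8 ligands and those of KYSE150 of 7, with 1 read in all for EREG and 4 for EPGN.

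The difference between control lines passed the threshold (limma adjusted p under 0.05) for 6 of the 7 ligands tested, while 62.0% of the 17823 genes tested passed it. Of these ligands 3 were higher in KYSE510, beside 28.3% of all genes, and 3 were lower, beside 33.7%. EREG, BTC and EPGN entered the test only through KYSE510 and therefore had to differ, so nothing is read from this count. Their fitted log2 differences of 1.74, 1.73 and 0.81 depend on the pseudocount and are not fold changes of the RNA. The range over the alternatives was 1.12 to 7.64 for EREG, 1.17 to 4.09 for BTC and 0.48 to 3.25 for EPGN.

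EPGN, EREG, AREG and BTC form a cluster: counted along the chromosome from the AREG start, EPGN starts at -136661 bases, EREG at -79991 and BTC at 349552. Within this cluster AREG was the only ligand higher in KYSE150. A window of 500 kb on either side, chosen after the values were seen, also holds, among others, PF4, CXCL5, CXCL3, CXCL2, MTHFD2L and PARM1. CXCL2, a chemokine gene, had 0.757 RPKM in KYSE150 controls and 1.08 in KYSE510 controls, and MTHFD2L, a mitochondrial folate enzyme gene, 0.474 and 0.724. PARM1, at the far end, had 0.00292 and 0.373 RPKM, with at most 1 read in a KYSE150 library.

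**Figure D2:**
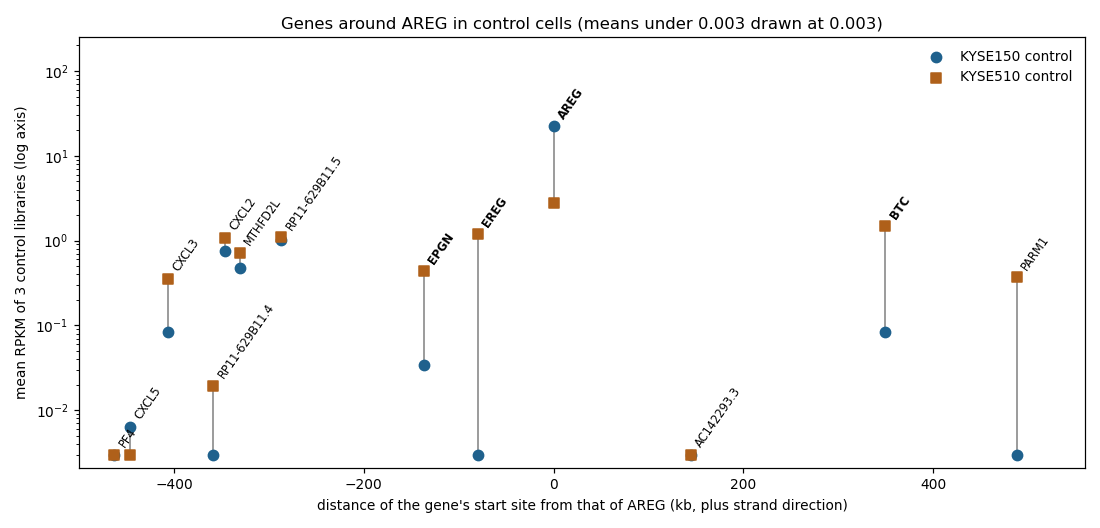
Mean RPKM (log axis, floor 0.003) of control libraries of both lines for genes near AREG, against the distance of their start from that of AREG in kb. AREG is above its KYSE510 level in KYSE150, and EPGN, EREG and BTC are below theirs.

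Added up per length, the 8 ligands reached 41.6 ± 10.6 RPKM in KYSE150 controls and 54.4 ± 13.8 in silenced KYSE150, against 11.1 ± 1.20 and 13.2 ± 3.56 in KYSE510. Their make-up differed as well. In KYSE150 controls AREG gave 53.2% ± 4.91 of the sum, NRG1 31.4% ± 3.55 and TGFA 11.4% ± 1.04, so that these 3 left only a few percent to the others. In KYSE510 controls AREG and NRG1 gave nearly equal shares, 25.0% ± 4.94 and 25.1% ± 5.17, followed by BTC at 13.3%, TGFA at 11.3% ± 0.926, EREG at 10.7%, HBEGF at 8.56%, EPGN at 3.95% and EGF at 2.05%. TGFA thus took a nearly equal share in both lines while its level differed. With HCP5 silenced, AREG took 57.9% ± 7.20 in KYSE150 and 30.1% ± 3.48 in KYSE510, and NRG1 24.7% ± 2.54 and 25.3% ± 3.42. RNA levels say nothing of how much ligand was cut free.

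**Figure D3:**
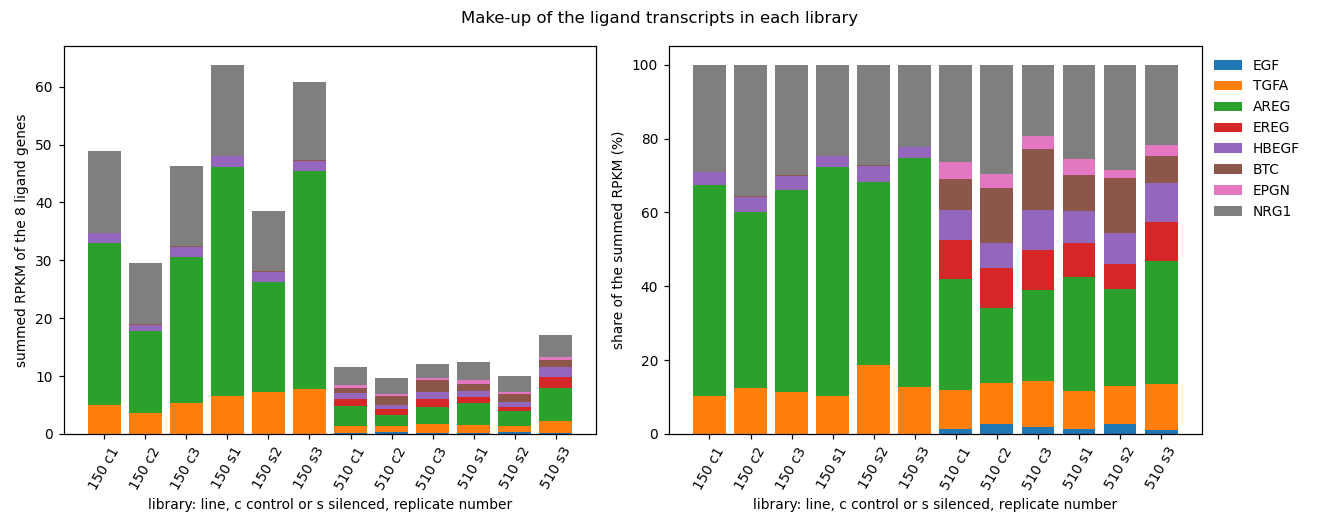
Summed RPKM of the 8 ligands (left) and the share of each in that sum (right, %), stacked for each of the 12 libraries (c control, s silenced, with the replicate number). AREG, NRG1 and TGFA fill the KYSE150 bars, and KYSE510 bars also hold BTC, EREG, HBEGF, EPGN and EGF.

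HCP5 silencing was compared with control within each line. In KYSE150, TGFA was at 7.19 ± 0.577 RPKM in silenced cells against 4.67 ± 0.881 in controls, and AREG at 32.1 ± 11.3 against 22.5 ± 7.39, the largest differences of the 7 tested ligands on log2(RPKM + 0.5). None of the 7 passed the test, beside 0.499% of all genes (89 genes in limma, and 3224 at an unadjusted p under 0.05). For TGFA the log2 difference (silenced minus control) was 0.59 (95% interval 0.16 to 1.01, limma adjusted p = 0.175). The exact permutation test gave p = 0.1, the smallest that 3 libraries against 3 allow. For AREG it was 0.50 (-0.26 to 1.25, limma adjusted p = 0.461), and the exact permutation p was 0.3. TGFA and EREG (on 8 reads in all) were the ligands whose silenced libraries all lay above the controls, as did 13.7% of all genes. EPGN, on few reads, had all silenced libraries below the controls (at most 0.0204 against at least 0.0269 RPKM), as did 5.47% of all genes.

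Libraries of the same replicate number deviated together, at r of 0.147 to 0.415, against -0.385 to 0.184 for unlike numbers. Deviations are taken from each group's own mean, so the values for like and unlike numbers are tied and are not separate evidence. A fit with the replicate number as a block, planned as an alternative, is given beside the fit without it. With that block TGFA passed in KYSE150 (adjusted p in limma 0.0463, interval 0.28 to 0.89), 1 of 7 ligands beside 6.70% of all genes, and AREG did not (adjusted p = 0.0604). Leaving out any of the 6 same-numbered pairs of the study ended the TGFA call, with an adjusted p of 0.0704 to 0.166. Without a KYSE510 pair the TGFA difference stayed at 0.59 (SE 0.11 to 0.14, against 0.13 with all pairs). In those fits the calls over all genes fell from 1194 to between 165 and 461. The loss of the call there cannot be read as a change in TGFA. With recovered reads and the block (limma's voom, an alternative added after the data were seen), both TGFA (0.63, adjusted p = 0.0022) and AREG (0.51, adjusted p = 0.00202) passed, 2 of 7 beside 19.0% of all genes.

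Among the remaining ligands of KYSE150, HBEGF differed by 0.18, NRG1 by 0.04, EREG by 0.03, BTC by -0.05 and EPGN by -0.08 on the log2 scale, with limma adjusted p between 0.682 and 0.961. The median over the 7 tested ligands was 0.04, against 0.08 over all genes tested, of which 66.1% were higher in silenced cells. Centring each library on its median moved that 0.08 to -0.05, and NRG1 and EREG to -0.09, so the direction of these small values depends on the scaling. The deeper sequencing of all silenced KYSE150 libraries runs with this comparison, and its part in the result was not tested.

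In KYSE510 no ligand passed, beside 0.0393% of all genes (7 genes in limma, and 1132 at an unadjusted p under 0.05), nor with the replicate block, beside 0.112%. AREG differed by 0.43 (SE 0.35, limma adjusted p = 0.942), HBEGF by 0.22 (SE 0.21, adjusted p = 0.945), NRG1 by 0.20 (SE 0.16, adjusted p = 0.942) and TGFA by 0.14 (SE 0.19, adjusted p = 0.963). EREG, BTC and EPGN were at -0.03, -0.09 and -0.04. No ligand had all silenced libraries above all controls, which 5.22% of all genes had. Silenced replicate 3 carried much of what difference there was: without it the AREG difference was 0.18 and that of HBEGF 0.00013, while TGFA became -0.08.

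Averaged over the lines, AREG differed by 0.46 (SE 0.24, limma adjusted p = 0.521), TGFA by 0.36 (SE 0.14, adjusted p = 0.332) and HBEGF by 0.20 (SE 0.15, adjusted p = 0.680). No ligand passed, beside 0.539% of all genes (96 genes in limma, and 2043 at an unadjusted p under 0.05). Between same-numbered libraries AREG was higher in the silenced library of 3 of 3 pairs in KYSE150, by 0.49, 0.43 and 0.56 on the log2 scale, and of 3 of 3 in KYSE510, by 0.12, 0.35 and 0.82. HBEGF was also higher in 3 of 3 pairs of each line, by as little as 0.018 in KYSE150, and TGFA in 3 of 3 in KYSE150 and 2 of 3 in KYSE510. The share of all genes higher in 3 of 3 pairs was not computed, so nothing is read from these counts. Of all genes, 66.1% had a higher fitted mean in silenced KYSE150 and 43.0% in silenced KYSE510. With the replicate block AREG passed on the mean over lines (interval 0.25 to 0.67, adjusted p in limma 0.0478), 1 of 7 beside 2.74% of all genes, and leaving out any pair ended that call, with an adjusted p of 0.0713 to 0.140. On recovered reads with the block, AREG (0.52, adjusted p = 0.00264) and TGFA (0.43, adjusted p = 0.016) passed, 2 of 7 beside 7.27% of all genes.

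**Figure D4:**
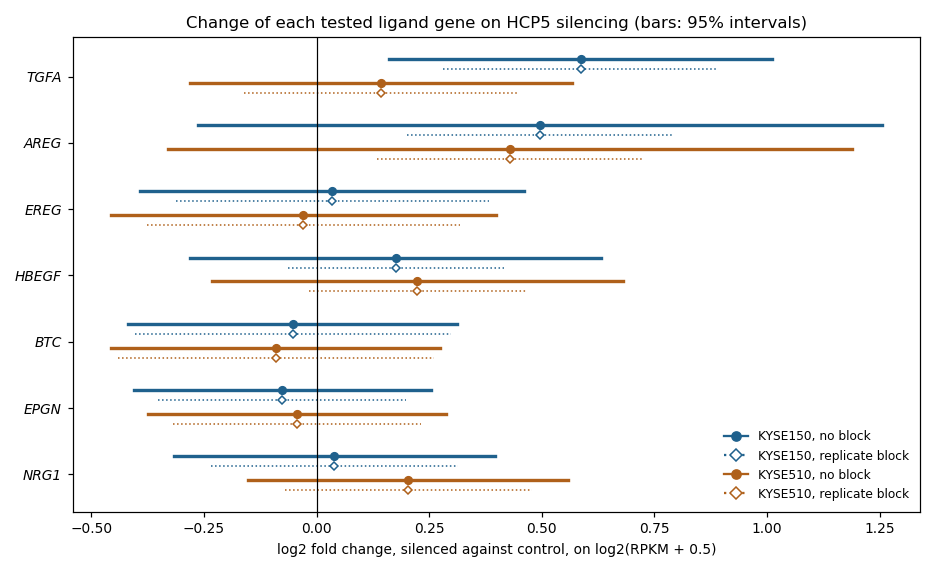
Silenced minus control difference on log2(RPKM + 0.5) for the 7 tested ligands in each line, with 95% intervals from limma (solid, no block; dotted, replicate block). Only TGFA in KYSE150 has a solid interval clear of 0, from 0.16 to 1.01, and its adjusted p was 0.175.

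Whether the lines responded differently was tested by the difference of the silencing change. For TGFA it was -0.44 (KYSE510 minus KYSE150, SE 0.27, limma adjusted p = 0.468), the largest of the 7. AREG was at -0.06 (adjusted p = 0.959), and the others between -0.06 and 0.16. No ligand passed and neither did any gene (0%; 2181 genes had an unadjusted p under 0.05 in limma, and the block gave 0 as well). On recovered reads with the block, 7.59% of all genes passed and again no ligand, TGFA having a difference of -0.40 (adjusted p in limma 0.209). A TGFA change particular to KYSE150 was thus not shown.

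Replicates of a group differed widely, and several ligands shared a pattern. The library of replicate 2 was the lowest of its group for AREG and HBEGF in 4 of 4 groups, for TGFA and NRG1 in 3 of 4, and for EREG and EPGN in both KYSE510 groups. AREG in replicate 2 deviated from its group mean on the log2 scale by -0.60 and -0.66 in KYSE150 and by -0.39 and -0.48 in KYSE510, about as far as the silencing difference itself. BTC instead was lowest in replicate 1 in 4 of 4 groups. In KYSE150 that rests on 2 to 7 reads in a control library and 4 to 5 in a silenced one. In silenced KYSE510 replicate 1 was at 1.21 RPKM and replicate 3 at 1.23. Silenced KYSE510 replicate 3 lay above its group mean by 0.45 for TGFA, 0.49 for AREG, 0.49 for EREG and 0.45 for HBEGF. Over 12 libraries the deviations from group means correlated, as a description, at r = 0.93 between TGFA and HBEGF and 0.82 between AREG and NRG1. TGFA and EREG stood at 0.80 and AREG and HBEGF at 0.73. TGFA and NRG1 reached 0.40, HBEGF and NRG1 0.36, and AREG and BTC -0.32. EGF, nearly all of whose reads were in KYSE510, ran against EPGN (-0.94) and EREG (-0.66). EGF, EPGN and EREG had at most 3 reads in any KYSE150 library. Correlations with them therefore rest almost wholly on the KYSE510 libraries. Each of these correlations shares the same libraries and their depth. By likeness to TGFA, with line means removed, HBEGF ranked 403, AREG 1202 and NRG1 5911 of 14027 genes. By likeness to NRG1, AREG ranked 11. With line means removed, r between TGFA and HBEGF was 0.83, and many genes outside the ligands ran closer to TGFA. Ranks were not computed for deviations from group means. How often other genes were lowest in replicate 2 was not counted, so the pattern was not shown to be particular to the ligands.

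**Figure D5:**
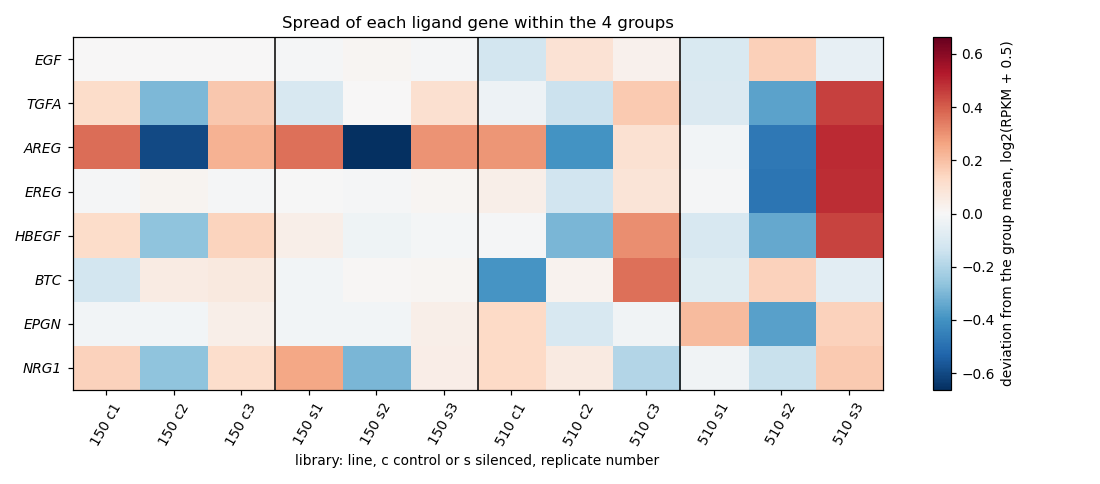
Deviation of each library from its group mean on log2(RPKM + 0.5) for each of the 8 ligands (color scale), in columns for the 12 libraries (c control, s silenced, with the replicate number). Replicate 2 is lowest in all 4 groups for AREG and HBEGF, and silenced KYSE510 replicate 3 is high for TGFA, AREG, EREG and HBEGF.

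The genes that ran most like each ligand were sought among 14027 genes over the 12 libraries, with the mean of each line removed (Pearson's r, as a description). For AREG they included LINC00941 (r = 0.958), a long non-coding RNA, and CD44 (0.951), the hyaluronan receptor. For NRG1 they included RGS20 (0.913), a regulator of G-protein signalling, and FST (0.907), the activin-binding protein follistatin. TGFA ran with STK17A (0.965), TANC2 (0.961) and P2RY2 (0.958), a nucleotide receptor. HBEGF ran with MAFF (0.962), a small MAF transcription factor, DNMBP (0.960) and SLC35F2 (0.941).

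Among the receptors, EGFR was higher in KYSE150, and ERBB2 and ERBB3 in KYSE510. EGFR, the receptor of most of these ligands, had 30.3 ± 3.60 RPKM in KYSE150 controls and 8.95 ± 0.0842 in KYSE510 controls (log2 difference -1.70, SE 0.11, limma adjusted p = 2.03e-07). ERBB2, which binds no known ligand and serves as partner, had 5.50 ± 0.246 and 6.79 ± 0.644 (0.28, limma adjusted p = 0.0161). ERBB3, the NRG1 receptor, had 3.64 ± 0.767 and 5.73 ± 0.829 (0.60, limma adjusted p = 0.0038). ERBB4 was near 0 in all groups, with 0 to 4 reads a library. In silenced cells EGFR had 34.2 ± 4.07 RPKM in KYSE150 and 10.7 ± 1.19 in KYSE510, and no receptor passed the silencing test in either line, with or without the block. Among neuregulins outside the 8, NRG4 was higher in KYSE510 controls (0.967 against 0.401 RPKM, limma adjusted p = 0.00061), and NRG3 had no read in any library.

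Counts for the pathway lists stand beside 28.3% of all genes higher and 33.7% lower in KYSE510 controls, a share that the feedback inhibitors nearly match in both directions. Of 11 tested genes for shedding and transport of ligands, 6 were higher in KYSE510 controls and 0 lower. TIMP3, a protease inhibitor (3.96 on the log2 scale), ADAM12 (2.45) and RHBDL2 (2.29), a rhomboid protease, are 3 of these 6. They passed the filter only through KYSE510 and so had to be higher there, as did LRIG1 and CBLB among the inhibitors and NRG4. ADAM17, the main sheddase of AREG and TGFA, was level at 13.9 ± 0.904 RPKM in KYSE150 controls and 14.5 ± 0.0593 in KYSE510 controls and did not pass. Of 13 feedback inhibitors, 4 were higher in KYSE510, among them LRIG1 (1.97), and 4 lower, SPRY2 (-1.15) and CBL (-1.14) most. Of 12 tested ERK-induced genes 2 were higher and 5 lower. FOSL1 (-2.39), PHLDA1 (-1.84) and ETV5 (-1.16) were lower by the most on that scale. SPRY2, SPRY4, FOSB and ETV5 reached 0.5 RPKM in 6 KYSE150 libraries and only 1 of KYSE510. They entered the test through KYSE150, as ADAM19 did through KYSE510 (6 libraries against 1), so nothing is read from their direction. The adaptors SHC1 (0.79) and GRB2 (-0.32) passed, of 6. The differences of TIMP3, ADAM12, RHBDL2 and LRIG1, which were close to 0 in KYSE150, depend on the pseudocount. So does the order of the lower genes, since some were low in KYSE510. ETV5 had a mean of 1.08 RPKM in KYSE150 controls and 0.206 in KYSE510 controls, and SPRY4 0.711 and 0.165.

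With HCP5 silenced, no gene of these lists passed in either line. The feedback inhibitors had a median of 0.35 in KYSE150 (12 of 13 higher) and the ERK-induced genes 0.43 (11 of 12 higher), against 0.08 over all genes, and -0.02 and 0.16 in KYSE510. Of all genes, 66.1% were higher in silenced KYSE150, a direction that depended on the scaling (median -0.05 after centring). With the replicate block 2 of 11 shedding genes, 1 of 6 adaptors, 3 of 13 feedback inhibitors and 4 of 12 ERK-induced genes passed in KYSE150, all higher, beside 6.70% of all genes in either direction. They included the ERK phosphatases DUSP6 (0.95, adjusted p in limma 0.0314) and DUSP5 (0.47, 0.0325), the immediate-early genes IER3 (0.75, 0.0287) and JUNB (0.72, 0.0275), the adaptor SHC1 (0.47, 0.0187) and RHBDF1 (0.38, 0.0464), which helps ADAM17 to the cell surface. None passed with the block in KYSE510, beside 0.112%. Leaving out a pair lowered the number of all genes called with the block in KYSE150 from 1194 to between 0 and 461. The squamous markers moved with silencing as well: their summed RPKM ran from 1019 to 1730 in KYSE150 controls and 1304 to 2947 in silenced libraries, and from 1368 to 1918 and 1743 to 2983 in KYSE510. All 9 had a higher fitted mean in silenced cells of both lines, beside 66.1% of all genes in KYSE150 and 43.0% in KYSE510. Without the block none passed within a line, and TP63 passed on the mean over lines (0.32, adjusted p in limma 0.0483). With it 8 passed in KYSE150 (beside 6.70% of all genes), 1 in KYSE510 (0.112%) and 7 on the mean over lines (2.74%), and their part in the ligand results was not tested.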

How the data were processed

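Total RNA was sequenced by the submitters, and HISAT2, DESeq and GRCh38 are named, per the submitters' processing notes. The aligner settings, annotation release, use of strand and filters are not given in the sources used here. The values deposited by the authors are RPKM per gene, with exon positions and lengths, per the file headers. RPKM times length gave whole reads for 100% of values (within 0.1 read), so read totals and exact 95% Poisson intervals were recovered. They cover counting error only.

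The 17823 genes reaching an RPKM of 0.5 in 3 or more libraries were tested on log2(RPKM + 0.5) with limma 3.58.1 in R 4.3.3. The fit had 4 group means over 12 libraries (8 residual degrees of freedom), empirical Bayes with trend and two-sided p-values. These were adjusted by Benjamini-Hochberg over all genes tested, with a threshold of 0.05. A log2 difference on this scale understates changes of low genes. Single values also got exact two-sided permutation tests in SciPy 1.17.1. The code was tested on simulated data.

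Groups came from the labels, and replicate numbers from the titles. Deviations of same-numbered control and silenced libraries correlated at 0.147 to 0.415 in all 6 pairs. Those of unlike numbers stood at -0.385 to 0.184. The highest of these, KYSE150 control 2 with silenced 1, was above the 0.147 of control 2 with silenced 2, so that pairing is less sure. The numbers were still taken to pair libraries, and a block fit (4 residual degrees of freedom) stands beside a result where it changes a call. Alternatives were other pseudocounts and filters, median centring, only the groups compared, recovered reads with voom, and leaving out each library. The genes named are all ligands and receptors, the 3 most correlated genes of each tested ligand whose mean RPKM was 1 or more, and up to 3 genes per pathway list with the largest change past the threshold. Where others are named, they were chosen after their values were seen. Of the correlated genes, 1 is not reported here. The members and lists were chosen with earlier results of these data known. Promoter sequences are from RefSeq (GRCh38.p14).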

Additional observations from a re-analysis of the deposited data

How the results depend on the processing

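Without the block, the counts of ligands called under silencing were 0 in KYSE150, in KYSE510, on the mean over lines and for the difference between lines. They stayed 0 when each library was left out (range 0 to 0), and 6 to 7 for the control lines. The replicate block called 1 ligand in KYSE150 and 1 on the mean over lines, and voom with the replicate block 2 and 2. Leaving out a pair from the block fit ended every call. The block changed no other call. The cause of these shifts was not tested. Ligands with small differences changed sign. Under median centring EREG became -0.095 and NRG1 -0.090 in KYSE150, EREG -0.049 on the mean over lines, and the line differences of AREG 0.091, EREG 0.092 and BTC 0.12. With voom the line difference of AREG was 0.014 and of BTC 0.20, and with voom and the replicate block these were 0.017 and 0.23, with EREG in KYSE510 at 0.021. A pseudocount of 0.1 gave a BTC line difference of 0.053. Leaving out single libraries or pairs, log2 differences ran from -0.094 to 0.19 for NRG1 in KYSE150. In KYSE510 they ran from -0.083 to 0.32 for TGFA, -0.27 to 0.21 for EREG, -0.28 to 0.13 for BTC and -0.15 to 0.14 for EPGN. On the mean over lines they ran from -0.12 to 0.12 for EREG, -0.17 to 0.037 for BTC and -0.11 to 0.030 for EPGN. Line differences ran from -0.40 to 0.23 for AREG, -0.31 to 0.18 for EREG, -0.18 to 0.22 for HBEGF, -0.23 to 0.18 for BTC, -0.072 to 0.21 for EPGN and -0.019 to 0.30 for NRG1. AREG in KYSE150 ran from 0.20 (without control replicate 2) to 0.83 (without silenced replicate 2). The control lines lie in different blocks and have no blocked value, fits to only the groups compared give no mean over lines, and EPGN falls under a 1 RPKM filter. Depth limits EGF, and EREG, BTC and EPGN in KYSE150, to a few reads.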
